A study of Mus musculus with 2 samples.

Results

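A probe set on an Affymetrix 3' expression array is a group of short DNA oligonucleotides read as 1 signal, and some probe sets cannot be assigned to a single gene. Of the 45101 probe sets on the arrays examined here, 932 were listed in the platform annotation with 2 or more gene symbols or gene IDs. Another 34945 named 1 gene, 9160 had no gene listed and 64 were array controls. RNA came from peritoneal macrophages of C57BL/6J mice aged 8 weeks, with 1 array per group. The resident array (RPMs) held RNA of macrophages from mice that received no injection. The elicited array (TGPMs) held RNA of macrophages taken 3 days after an injection of 1 mL of 3% thioglycollate into the peritoneal cavity, a sterile irritant that draws leukocytes there. Cells of both groups adhered to a dish for 2 h before the others were washed off, and biotin-labelled cRNA was made out of 100 ng of total RNA. Overnight culture is what the text on the series gives instead, and neither text says how many mice gave the RNA of an array. Of 8 macrophage markers, 8 were above the signal floor explained below on both arrays (sums of 141135 and 137236). Of these 5 were within 2-fold, while Itgam was 2.99-fold lower on the elicited array, Cd14 2.73-fold lower and Fcgr1 2.55-fold higher. Of 6 markers of resident peritoneal macrophages, 5 differed by 2-fold or more, all of them lower in elicited cells. With 1 array per group there was no replicate, so no difference below carries a test, and each ratio describes these 2 arrays.

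Gene families arise by duplication, and copies that have diverged little share stretches of sequence that one oligonucleotide can bind. A probe set over such a stretch reads the summed RNA of several genes, as does one over a gene and its processed pseudogene, or over transcripts that overlap in the genome. The families that are hard to separate in this way include several that macrophage biology turns on. MHC class I molecules present peptides of the cell's own proteins to CD8 T cells, and their non-classical members, such as the Qa and T-region molecules, engage receptors of NK and unconventional T cells. Ly6 proteins are small lipid-anchored surface proteins, of which Ly6C marks inflammatory monocytes. Interferon-induced genes, among them the PYHIN DNA sensors, the guanylate-binding GTPases and Isg15, carry an element in their promoters that interferon-activated factors bind. The replication-dependent histone genes lie in clusters and are transcribed in S phase, mostly into mRNA without a poly(A) tail.

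The sequences below show how near the copies can be, in the part of the gene that starts transcription. Each is the 250 bases before the annotated start in RefSeq (GRCm38.p6), 5′ to 3′ on the gene's own strand. The alpha-globin genes Hba-a1 and Hba-a2 encode an oxygen-carrying chain of haemoglobin and are named together by 3 probe sets. Their windows had 247 identical bases, and the 3 capitals in each are end bases that fall outside the other window.

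Hba-a1, chr11:32283422-32283671, plus strand: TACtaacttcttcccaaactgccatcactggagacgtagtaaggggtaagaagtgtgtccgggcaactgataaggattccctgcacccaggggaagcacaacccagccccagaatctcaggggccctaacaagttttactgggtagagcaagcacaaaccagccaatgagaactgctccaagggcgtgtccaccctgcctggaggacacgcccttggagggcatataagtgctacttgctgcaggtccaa

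Hba-a2, chr11:32296242-32296491, plus strand: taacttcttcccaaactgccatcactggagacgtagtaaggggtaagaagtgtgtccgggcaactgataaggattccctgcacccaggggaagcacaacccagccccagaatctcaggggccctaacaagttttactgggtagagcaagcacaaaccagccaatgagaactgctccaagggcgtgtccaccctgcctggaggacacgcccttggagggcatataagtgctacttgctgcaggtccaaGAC

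H2-Q6 and H2-Q7 are MHC class I genes of the Qa region, named by different probe sets that were both lower on the elicited array. Of the 250 bases in each window, 205 were identical. Capitals mark bases without an identical partner, and the long run of capitals at the end of one and the start of the other comes from different annotated starts.

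H2-Q6, chr17:35424600-35424849, plus strand: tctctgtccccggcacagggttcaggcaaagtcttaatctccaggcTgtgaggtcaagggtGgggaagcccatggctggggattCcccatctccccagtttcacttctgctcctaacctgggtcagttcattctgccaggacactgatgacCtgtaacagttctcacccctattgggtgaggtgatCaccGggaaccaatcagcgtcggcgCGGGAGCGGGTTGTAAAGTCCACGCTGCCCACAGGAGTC

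H2-Q7, chr17:35438905-35439154, plus strand: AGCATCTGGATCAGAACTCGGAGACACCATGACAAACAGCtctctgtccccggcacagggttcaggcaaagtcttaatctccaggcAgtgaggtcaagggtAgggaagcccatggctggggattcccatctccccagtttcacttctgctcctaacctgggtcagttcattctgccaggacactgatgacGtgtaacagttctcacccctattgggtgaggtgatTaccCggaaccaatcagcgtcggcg

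For the interferon-induced genes the core of the interferon-stimulated response element (GAAA, 2 free bases, GAAA) was searched on both strands. It was found in 7 of the 9 windows, or 6 of the 7 genes (Ifi203, Ifi205, Isg15, Mndal, Tgtp1 and Tgtp2) and in 2.98% of all 32851 windows of the same length. In the 4 windows printed here capitals mark each match, which overlap each other in Isg15. The first match began 77 bases before the start of Tgtp1, 70 before Tgtp2, 134 before Ifi205 and 78 before Isg15.

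Tgtp1, chr11:48992247-48992496, minus strand: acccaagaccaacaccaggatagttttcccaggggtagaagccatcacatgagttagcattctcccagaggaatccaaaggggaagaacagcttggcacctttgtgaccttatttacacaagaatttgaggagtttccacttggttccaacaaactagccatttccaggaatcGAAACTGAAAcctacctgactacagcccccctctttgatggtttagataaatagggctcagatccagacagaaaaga

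Tgtp2, chr11:49064213-49064462, minus strand: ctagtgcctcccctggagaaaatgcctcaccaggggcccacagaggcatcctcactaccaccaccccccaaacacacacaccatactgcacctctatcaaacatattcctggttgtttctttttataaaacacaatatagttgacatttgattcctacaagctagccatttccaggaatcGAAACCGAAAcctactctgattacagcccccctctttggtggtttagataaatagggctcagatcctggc

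Ifi205, chr1:174031756-174032005, minus strand: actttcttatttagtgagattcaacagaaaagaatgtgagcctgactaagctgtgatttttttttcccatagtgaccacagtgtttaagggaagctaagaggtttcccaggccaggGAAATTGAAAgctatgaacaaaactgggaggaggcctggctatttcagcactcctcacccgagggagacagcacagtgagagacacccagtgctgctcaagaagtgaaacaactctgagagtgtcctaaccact

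Isg15, chr4:156200819-156201068, minus strand: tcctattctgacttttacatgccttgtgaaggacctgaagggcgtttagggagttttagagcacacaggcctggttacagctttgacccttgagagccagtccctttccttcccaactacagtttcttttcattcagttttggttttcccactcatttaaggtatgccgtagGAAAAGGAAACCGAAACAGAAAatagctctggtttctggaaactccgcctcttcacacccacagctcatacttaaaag

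In the histone genes the octamer ATTTGCAT, a known element of H2B promoters, was searched on both strands. It was present in 9 of 62 windows of the histone genes named (14.5%), and in 1.60% of all windows. By class it was present in 3 of 10 H2bc, 4 of 12 H2ac, 0 of 10 H3c and 0 of 11 H4c windows. The pentamer CCAAT was present in 39 of the 62 (62.9%), in all 10 H2bc windows and all 12 H2ac windows, against 33.8% of all windows. TATAAA was present in 20 of the 62 (32.3%), against 12.4%. Capitals mark the octamer in 2 genes that share a probe set which was 6.42-fold higher on the elicited array.

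H2bc8, chr13:23571150-23571399, plus strand: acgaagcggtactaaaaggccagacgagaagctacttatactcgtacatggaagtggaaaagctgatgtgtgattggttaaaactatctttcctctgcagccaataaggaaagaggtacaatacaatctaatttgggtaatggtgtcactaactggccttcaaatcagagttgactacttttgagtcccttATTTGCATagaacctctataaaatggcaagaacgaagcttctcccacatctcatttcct

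H2bc14, chr13:21721794-21722043, plus strand: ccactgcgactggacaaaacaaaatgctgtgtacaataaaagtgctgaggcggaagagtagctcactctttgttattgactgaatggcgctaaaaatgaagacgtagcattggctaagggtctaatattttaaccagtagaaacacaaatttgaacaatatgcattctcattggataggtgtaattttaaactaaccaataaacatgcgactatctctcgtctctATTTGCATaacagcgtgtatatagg

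Another kind of sharing is that between a small RNA and a protein-coding gene. The microRNA miR-692 is annotated at 3 loci, and all 3 were named by a probe set together with Ftl1, the ferritin light chain, and a pseudogene of it. The 3 loci give the same mature sequence, at chr17:6895259-6895279 for the first of them, with the seed (bases 2 to 8) in capitals. The labelling starts from polyadenylated RNA, so the array signal is not a level of the mature microRNA.

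miR-692: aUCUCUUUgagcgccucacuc

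Of the 932 probe sets, 671 named 2 genes, 133 named 3 and 128 named 4 or more, up to 18 genes in 2 probe sets. They covered 635 different combinations of genes and 1551 gene IDs, of which 1484 are in the RefSeq gene table. The manufacturer's suffix _x_at, for probe sets with some oligonucleotides that match other transcripts, stood on 16.2% of them, against 5.83% of probe sets that name 1 gene. The suffix _s_at, for oligonucleotides that all match several transcripts, stood on 15.6% against 5.24%. The plain suffix _at, which promises a unique match, still stood on 490 of the 932 (52.6%). At least 1 named gene was a pseudogene in 342 (36.7%), and symbols with the same first 3 letters appeared in 435 (46.7%). The named genes lay on different chromosomes in 329 (35.3%), overlapped each other in 118 (12.7%), lay within 100 kb in 216 (23.2%) and lay farther apart on 1 chromosome in 199 (21.4%). The windows before the start could be aligned for 322 gene combinations. For each combination the identity of its most alike pair of genes was taken. The median of this highest identity was 80.8% over the 173 that shared a symbol stem and 57.2% over the 149 that did not. Other pairs of a combination could be far less alike: in that of the H4c genes the highest identity was 99.6% and the lowest 46.8%.

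Signals are the linear intensities deposited by the authors, and of each pair of signals below the first is that of the resident array and the second that of the elicited array. A floor of 82.2 was taken as the 95th percentile of 126 probe sets for olfactory, vomeronasal, taste and hair-keratin genes, which macrophages are not known to use. A probe set counted as measured when at least 1 array was above the floor, lower signals were raised to it, and a ratio against a floored signal is given as a bound ("at least"). By this, 604 of the 932 were measured (64.8%). Of them 528 were above the floor on both arrays, 46 on the resident array alone and 30 on the elicited array alone. The other 328 were at or below it on both. Ratios of probe sets for 1 gene varied with an SD of 0.48 on the log2 scale (1.40-fold, 4465 genes), and those of probe sets with the same several genes with an SD of 0.37 (1.29-fold, 105 combinations, 293 probe sets). This spread between oligonucleotides is the only error these data give, and it leaves out the spread between mice.

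Of the 604 probe sets, 52 were at least 2-fold higher on the elicited array, 61 at least 2-fold lower and 491 within 2-fold. Over all probe sets measured, 6.11% were higher and 17.4% lower, and the shares of the probe sets with several genes were 8.61% and 10.1%. These were 6.65% and 15.2% for probe sets that name 1 gene, and 1.9% and 34.1% for those with no gene listed. The median log2 ratio (elicited minus resident) of those with several genes was 0.15, against -0.15 for probe sets with 1 gene and -0.19 for all. Brightness moved with this difference: 324 of the 604 lay in the brightest of 4 equal parts of all measured probe sets, where the median was 0.28 for them and 0.16 for all. In the other parts, from dim to bright, their medians were -0.17, -0.44 and -0.19, against -0.25, -0.51 and -0.23 for all. The part of brightness in the difference was not tested. The split between higher and lower also depended on how the arrays are set against each other. With equal medians it was 98 to 46, with quantile normalization 56 to 45, with a loess trend removed 52 to 51, and with spiked hybridisation controls set equal 25 to 92. These scalings placed the median of all probe sets at 0.07, 0.04, -0.08 and -0.48. In no gene combination did one probe set read 2-fold higher and another 2-fold lower, and 43 combinations had one that was higher and 51 one that was lower. A combination read by a single probe set could not show both. Repeat readings clear of the floor on each array existed for 105 of the 397 measured combinations. In 74 of these 105 the log2 ratios all had the same sign, and in 18 they spanned more than 2-fold. Rbm3-ps with Rbm3, for example, had log2 ratios of -1.56 and 0.68.

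The share of probe sets that differed between the arrays varied with where their genes lie, and the part of gene families in this was not tested. Over all probe sets measured, 6.11% were higher on the elicited array and 17.4% lower. Of the 82 measured probe sets whose genes lay on 1 chromosome more than 100 kb apart, 20.7% were higher and 24.4% lower on the elicited array. They included the kappa, Qa-region, Ifi203, Gpr137b and Klra probe sets, several of which share genes. Where genes lay on different chromosomes, 6.35% of 299 were higher and 6.02% lower. Among 63 whose genes overlap, 7.94% were higher and 3.17% lower. Probe sets whose genes share a symbol stem were higher in 13.9% and lower in 11.1% of 280, and those without a shared stem in 4.01% and 9.26% of 324.

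MHC class I probe sets did not all differ in the same direction. The annotation gave 12, of which 8 were measured, with 1 higher, 4 lower and 3 within 2-fold, and a median log2 ratio of -0.90. The Qa-region genes H2-Q9 and H2-Q7 read 2252 for resident and 248 for elicited cells, 9.07-fold lower. H2-Q6 and H2-Q8 read 1271 and 295, which is 4.31-fold lower. A probe set that adds H2-Q4 to them read 484 and 49.4, at least 5.89-fold lower. The 3 Qa-region probe sets thus had their high signal on the resident array. In contrast, H2-T-ps and H2-T23, the latter encoding Qa-1, read 7197 and 17755, 2.47-fold higher on the elicited array. With quantile normalization this log2 ratio was 0.95, which is within 2-fold. The other probe set for the same genes was dim and read 132 and 154. H2-T9, H2-T22 and H2-T10, whose T22 and T10 molecules are ligands of some gamma-delta T cell receptors, read 3152 and 4450, which is within 2-fold. The probe set for H2-Q5 and H2-K1 lay at the floor, with 81.5 and 82.3. The 4 others were below the floor on both arrays, among them H2-T3 with H2-T18.

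The classical class I genes showed how much a shared probe set can differ from the unshared ones. H2-K1 and H2-D1, which present peptide to CD8 T cells, read 12509 for resident and 3602 for elicited cells, 3.47-fold lower, a log2 ratio of -1.80. The probe sets that name H2-K1 or H2-D1 alone and were above the floor on both arrays numbered 9, and their median log2 ratio was 0.04. The brightest for H2-K1 alone read 31442 and 29426, and the brightest for H2-D1 alone 25271 and 35141. Neither gene was thus 2-fold lower on the elicited array by these, and the shared probe set stood apart from them by 1.84 on the log2 scale. All measured class I probe sets with 1 gene numbered 17, with 1 higher, 1 lower and a median of 0.04. For the 8 shared ones the median was below 0 under all 4 other scalings and all other floors run, between -1.80 and -0.62.

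MHC class II molecules present peptides taken up from outside the cell to CD4 T cells, and H2-DM and H2-O govern how peptides are loaded onto them. All 3 class II probe sets with several genes were measured and 2 were lower. H2-Ob with the model Gm20506 read 633 and 35.5, at least 7.71-fold lower in elicited cells. H2-DMb2 and H2-DMb1 read 2380 and 1084 on 1 probe set (2.20-fold lower) and 826 and 527 on the other (1.57-fold lower). The 3 probe sets for H2-DMb2 alone were further apart between the arrays, with log2 ratios of -3.97, -3.74 and -3.26 against -1.13 and -0.65 for the shared ones. Among class II probe sets with 1 gene, 13 of 16 measured were lower, with a median of -1.57.

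The single Ly6 probe set with several genes named Ly6c2 and Ly6c1. Its signal was 1231 for resident and 227 for elicited cells, 5.42-fold lower, and it stayed lower under every scaling run (log2 ratio between -2.79 and -2.13). Ly6 probe sets with 1 gene showed 4 of 7 measured lower and 0 higher, with a median of -1.64. Ly6c1 is known from endothelium and T cells and Ly6c2 from monocytes, and the probe set cannot tell which of them it read. In RNA from whole populations, fewer cells of a type and less RNA per cell cannot be told apart, here and below.

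Interferon-induced genes gave 11 probe sets with several genes, of which 7 were measured, 0 higher and 2 lower, with a median of -0.73. Both of the lower ones were of the PYHIN gene Ifi203, a member of the DNA-sensing p200 family. With Ifi203-ps and LOC100862473 it read 1491 and 450, 3.31-fold lower on the elicited array, and with LOC102641031 added it read 921 and 294, 3.13-fold lower. The probe set for Ifi203 alone read 223 and 161, a log2 ratio of -0.47. The probe set for Mndal, Ifi211, Ifi205 and Ifi204 read 2521 and 1706, 1.48-fold lower, while its members went different ways where they could be read alone. Ifi204 alone read 324 and 755 (log2 ratio 1.22), and the 2 probe sets for Mndal alone had log2 ratios of -1.09 and -0.96. Ifi211 with Ifi205 read 2245 and 2615, which is 1.16-fold higher.

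The 3 measured shared probe sets of the other interferon-induced families were within 2-fold. The GTPases Tgtp2 and Tgtp1, which act on vacuoles of intracellular parasites, read 240 and 141 (1.71-fold lower on the elicited array). Gvin1, a very large interferon-inducible GTPase, read 2379 and 1432 together with Gm4070 (1.66-fold lower). The ubiquitin-like Isg15 with Gm9706 went the other way, at 149 and 246 (1.65-fold higher). Gbp8 with Gbp4 and Oas1e with Oas1d were below the floor on both arrays. Interferon-induced probe sets with 1 gene numbered 45 measured, with 5 higher, 11 lower and a median of -0.36. Of these the GTPases had 7 lower and 0 higher of 15, the oligoadenylate synthetases 1 higher and 2 lower of 6, and the IFIT and IFITM families 2 higher and 0 lower of 16. The family median of the shared ones ranged from -1.08 to -0.42 over the settings run.

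Many Schlafen and TRIM genes are also known as interferon-responsive. The single shared Schlafen probe set was lower on the elicited array, and of 5 measured shared TRIM probe sets 1 was lower and 0 higher, near the share over all probe sets. With 1 gene, Schlafen probe sets had 2 higher and 1 lower of 8 measured (median 0.01), and TRIM probe sets 3 higher and 12 lower of 70 (median -0.25). Slfn4 and Slfn3, growth-regulatory genes of myeloid and T cells, read 604 and 36.8, at least 7.34-fold lower, and Slfn4 alone read 3350 and 348 (log2 ratio -3.27). Slfn3 alone was below the floor on both arrays, at 30.4 and 1.04. Trim30d and Trim30a read 703 and 284, 2.48-fold lower, with 4 probe sets for 1 of them alone between -1.06 and -0.66. Trim34b and Trim34a read 908 and 525 (1.73-fold lower) and 348 and 185 (1.88-fold lower) on 2 probe sets.

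Histone genes were the family with the largest number of probe sets higher on the elicited array. Of 27 probe sets, 19 were measured, with 5 higher, 0 lower and 14 within 2-fold, and a median of 0.41. Replication-dependent histone mRNAs mostly lack a poly(A) tail and labelling starts from polyadenylated RNA, so their signals are not levels of all histone mRNA. H2bc8, H2bc6 and H2bc4, which encode the core histone H2B, read 1586 for resident and 12755 for elicited cells, 8.04-fold higher. A probe set for H4bc24, H2bc23, H2bc22, H2bc15, H2bc14, H2bc13 and 5 others read 2064 and 13245, 6.42-fold higher. H2bc22 alone read 166 and 480, a log2 ratio of 1.54. The H3c genes encode the replicative histone H3. One probe set for H3c13, H3c6, H3c2, H3c4, H3c3, H3c7 and 2 others read 80.2 and 690, at least 8.39-fold higher, and the other probe set for the same 8 genes read 211 and 715, 3.39-fold higher. With H3c1, H3c11, H3c10 and H3c8 added, 1 probe set read 171 and 509, 2.97-fold higher, and another was near the floor at 56.3 and 85.6.

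These 5 probe sets were high on the elicited array, yet they share targets. H2bc8, H2bc6 and H2bc4 are in both H2B probe sets, and 8 H3c genes are in all 3 H3 probe sets. Further probe sets for the same genes gave no ratio, because both of their signals failed to pass the floor. Among them were others for exactly H2bc8, H2bc6 and H2bc4, and those for H3c10 with H3c2 and for H4bc24 with several H2bc genes. H3c4 alone read 44.5 and 44.5, and H3c7 alone 73.6 and 73.9, likewise under the floor. The H4c probe sets, for H4c17, H4c2, H4c1, H4f16, H4c18, H4c12 and 7 others, differed less, at 282 and 462 (1.64-fold higher) and 124 and 212 (1.71-fold higher). H2ac23, H2ac13, H2ac4, H2ac24, H2ac22, H2ac12 and 4 others read 3034 and 5101, 1.68-fold higher. The replication-independent histone H3.3, read by 5 probe sets for H3f3a, H3f3b, H3f3c and 3 gene models, was within 2-fold, with elicited signals higher by ratios of 1.23-fold to 1.51-fold and a highest signal of 30200. H3f3a alone read 195 and 128 and H3f3b alone 363 and 239, both lower on the elicited array (log2 ratios -0.62 and -0.60). H2az1 with Gm8203, the variant H2A.Z, read 23805 and 28843, 1.21-fold higher. H2ac19 with H2ac18 read 95.6 and 99.6, near the floor, while the 2 probe sets for 1 of these genes alone had a median log2 ratio of 2.34. Among histone probe sets with 1 gene, 5 of 21 measured were higher and 0 lower, with a median of 0.40. The median of the shared ones stayed above 0 under each scaling run, from 0.06 with spiked controls set equal to 0.72 with equal medians.

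Proliferation markers stood as follows beside the histones. Of 6 listed, 5 had a probe set of their own and all 5 were above the floor on both arrays, with a summed signal of 10439 for resident and 25551 for elicited cells. Pcna, Top2a and Cdk1 were 2.82-fold, 3.26-fold and 3.56-fold higher on the elicited array, whereas Mki67 was 3.23-fold lower and Mcm2 1.52-fold lower. Their part in the histone result was not tested.

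Immunoglobulin probe sets carried the largest differences of all 932. Of 13, 8 were measured, with 5 lower on the elicited array, 0 higher and a median of -2.16. Igkc encodes the constant part of the kappa light chain, and 3 probe sets named it with Igkv6-23, Igkv4-53, Igkv8-30 and Igkj1. They read 10995 and 333 (33.0-fold lower), 11943 and 406 (29.4-fold lower), and 13316 and 622 (21.4-fold lower). All 3 were thus high on the resident array. The variable segment Igkv8-30 alone had a log2 ratio of -5.71. The lambda chain genes Iglc1 and Iglv1 read 775 and 37.4, at least 9.43-fold lower. Igkv6-14, Igkv6-23 and Igkv8-19 read 177 and 83.4 on 1 probe set (2.12-fold lower) and 84.1 and 26.3 on another. Igkv4-55 with Igkv4-68 read 128 and 2.47, and Ighv1-72 with Ighm 120 and 65.4, both above the floor on the resident array alone. The 5 other shared probe sets, among them 3 for Ighv14-2, Ighg3 and Ighm, were below the floor on both arrays. Probe sets for Ighm alone read far brighter in part. They gave 8119 and 161 (log2 ratio -5.66), 3368 and 276 (-3.61), 281 and 230 (-0.29), and 296 and 56.8, the last signal under the floor. The rest for Ighm alone were below the floor on both arrays. The median of the family moved with the floor, and it was -4.65 over the 4 probe sets that lay above it on both arrays.

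Markers of B cells moved with these probe sets. Of 7 listed, 6 had a probe set of their own, and 5 of the 6 were lower on the elicited array, with a summed signal of 23248 for resident and 4673 for elicited cells. Ms4a1, which encodes CD20, was 38.0-fold lower and Cd79b 23.9-fold lower, while Cd22 was 1.80-fold higher. The part of B cells in the immunoglobulin and class II values was not tested.

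Globins carry oxygen in red cells, and all 4 of their shared probe sets were measured and lower on the elicited array. The 3 for Hba-a2 and Hba-a1 read 3166 and 366 (8.66-fold lower), 24110 and 5148 (4.68-fold lower), and 25265 and 6547 (3.86-fold lower). Hbb-bt, Hbb-bs, Hbb-b2 and Hbb-b1, the beta chains, read 17262 and 3831, 4.51-fold lower. The resident array was thus the higher one in all 4. A probe set for Hba-a2 alone read 254 and 309, a log2 ratio of 0.28, and one for Hba-a1 alone was below the floor on both arrays. Of the erythroid markers, Alas2, the first enzyme of haem synthesis in red cells, read 172 and 71.5, and Epor 242 and 112. Both were thus lower on the elicited array, and their part in the globin values was not tested.

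Klra9 and Klra3, receptors of the Ly49 family for MHC class I, read 170 and 1653, 9.70-fold higher, the highest ratio of the 528 that were above the floor on both arrays. The 3 other killer lectin probe sets with several genes (Klrc3 with Klrc2, Klrb1b with Klrb1c, and Klra22 with Klra1) were below the floor on both arrays. Ly49 genes are known from NK cells, and of 4 NK markers with a probe set of their own, Ncr1, Eomes and Gzma were below the floor on both arrays and Klrd1 read 155 and 44.0. Of 4 measured killer lectin probe sets with 1 gene, 0 were higher and 2 lower on the elicited array, with a median of -1.04. The part of NK cells in the Klra9 and Klra3 value was not tested. Sh2d1b2 and Sh2d1b1, EAT-2 adaptors of SLAM receptors, read 129 and 527, 4.07-fold higher.

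The paired immunoglobulin-like receptors join activating members (Pira) to an inhibitory one (Pirb), both of which bind MHC class I. All 4 of their shared probe sets were measured, 2 were higher and 0 lower. Pirb, Pira2 and Pira1 read 1945 and 5316 on 1 probe set (2.73-fold higher) and 152 and 417 on the other (2.75-fold higher). A probe set with 6 genes (Gm14548, Gm10693, Pirb, Lilra6, Pira2 and Pira1) read 10987 and 10470, and Pirb alone read 11558 and 9377, both within 2-fold. Lilrb4a with Lilr4b, inhibitory receptors of the same family, read 28323 and 33854. Sirpb1c, Sirpb1b and Sirpb1a, activating members of the signal-regulatory proteins, read 1568 and 5674, 3.62-fold higher, and Sirpb1a alone had a log2 ratio of 1.71. The 4 paired-receptor probe sets had a median of 0.85, which stayed above 0 under each scaling run.

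Several further gene combinations, not all of them near copies, were far lower on the elicited array. The complement factor C4, read by C4a and C4b, gave 23444 and 863, 27.2-fold lower. C1rb with C1ra was near the floor at 85.7 and 72.4, while C1ra alone read 355 and 156 (log2 ratio -1.19). Ctla2b and Ctla2a, which resemble the propeptide of cathepsins, read 4007 and 263, 15.2-fold lower, and the probe sets for each alone had log2 ratios of -4.26 and -3.57. Argininosuccinate synthase, an enzyme on the path from citrulline to arginine, was read with a gene model (Gm5424, Ass1) at 1221 and 125, 9.77-fold lower. Thrombospondin-1, a matrix protein of platelets and macrophages, was named with Pald1 and read 16415 and 3294, 4.98-fold lower. Here both genes were also lower alone: Pald1 by -2.35 and Thbs1 by -3.83 and -3.45 on the log2 scale. Il4i1b with Il4i1, an amino acid oxidase of antigen-presenting cells, read 431 and 38.4, at least 5.25-fold lower. Gm20605, Sap25 and Lrch4 read 533 and 80.7, at least 6.49-fold lower, while Lrch4 alone read 124 and 131 and Gm20605 with Lrch4 read 613 and 408 on 1 probe set and 607 and 952 on another.

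Among the highest ratios were those of 4 more gene combinations. Gpr137b, a lysosomal membrane protein, was named with its pseudogene by 4 probe sets. They read 1671 and 10592 (6.34-fold higher), 2674 and 15371 (5.75-fold higher), 3294 and 18359 (5.57-fold higher) and 768 and 2503 (3.26-fold higher). The probe set for the pseudogene alone had a log2 ratio of 2.76, and 4 for Gpr137b alone lay between 0.53 and 2.58, the last a lower bound. Tyms-ps with Tyms, thymidylate synthase, read 108 and 465, 4.31-fold higher, and 5 probe sets for 1 of them alone were below the floor on both arrays. Aph1b and Aph1c, subunits of gamma-secretase, read 1558 and 6471, 4.15-fold higher, yet the 2 probe sets for Aph1b alone had log2 ratios of -0.31 and -0.68. Gm12854, S100a11-ps and S100a11, the last a calcium-binding protein, read 6942 and 25359, 3.65-fold higher.

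The 6 brightest signals of the elicited array among probe sets that the resident array read at the floor or under it were those of the H3c genes and 5 others. Naa80 with Hyal1, the latter a hyaluronidase and an overlapping neighbour, read 52.1 and 577, at least 7.02-fold higher, while their other probe set read 321 and 392 (1.22-fold higher). Rbx1-ps with Rbx1, a RING subunit of cullin ubiquitin ligases, read 65.9 and 306, at least 3.73-fold higher. Their 3 other probe sets were within 2-fold, with log2 ratios of 0.09, 0.85 and 0.88, and Rbx1 alone read 154 and 13.1, which is lower on the elicited array. Gm21451 with Loxl2, which cross-links collagen, read 81.3 and 289, at least 3.52-fold higher. Raet1e with Raet1d, stress-induced ligands of NKG2D, read 11.1 and 236, at least 2.87-fold higher. Iqschfp with Schip1 read 54.2 and 208, at least 2.53-fold higher. Of 10 mesothelial and fibroblast markers, cells that also make matrix, the resident array read 3 over the floor and the elicited array 9, with sums of 638 and 12213. Their part in the Loxl2 value was not tested.

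Ribosomal proteins were mostly within 2-fold, while 3 of 6 tubulin and actin probe sets were higher on the elicited array. Ribosomal proteins, whose many processed pseudogenes make them the largest family here, had 109 probe sets, 102 of them measured, with 0 higher and 2 lower. The median was 0.20, between -1.06 and 0.88 over the family, and it turned to -0.10, -0.24 and -0.15 with quantile normalization, loess and spiked controls. Rpl31-ps12 with Rpl31 was the brightest, at 35466 and 46432. The 2 lower ones were dim: Gm15483, Rps13-ps4 and Rps13 read 172 and 71.7, and Gm7429, Gm6570, Gm6109, Gm5481 and Rpl30 read 227 and 113. Tubulins form microtubules. Tuba3b with Tuba3a read 236 and 540 on 1 probe set (2.29-fold higher) and 165 and 150 on the other (1.10-fold lower). The other higher ones both named Gm6682 with Tuba1c, so they are not separate genes. They read 1272 and 2636 (2.07-fold higher) and 295 and 600 (2.03-fold higher), whereas Gm5620 with Tuba1b read 21369 and 30848. Of 37 measured tubulin and actin probe sets with 1 gene, 5 were higher and 2 lower, with a median of 0.39. Over all probe sets 6.11% were higher and 17.4% lower. The median of the shared tubulin and actin probe sets was 0.78, and it moved to 0.26 where all named genes had to belong to the family. The probe sets for 8 Ugt1a genes, whose mRNAs share their last exons, read 10624 and 14506, 4977 and 5863, and 3910 and 3705.

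Among the zinc finger genes, 13 of 28 were measured, with 0 higher and 1 lower. Gm13212 with Zfp982 read 331 and 133, 2.49-fold lower, Zfp960 with Zfp97 read 894 and 467, and the brightest, Gm10193 with Zfp706, read 4362 and 4082. Models without a name had 6 lower (40%) and 0 higher of 15 measured. Such models with 1 gene had 96 lower and 22 higher of 621, and over all probe sets 17.4% were lower. Gm4724, Gm14308, Gm2026 and Gm14434 read 541 and 168, 3.23-fold lower. Probe sets that name these genes, some with other models added, had log2 ratios of -1.69, -1.30, -1.08 and 0.88, so they are not separate genes. Gm3435 with 9030025P20Rik read 788 and 303, 2.60-fold lower. The brightest of the models without a name, Gm2036 with 1810037I17Rik, read 3846 and 6491. Of 11 measured probe sets with a small RNA, 1 was higher, that of Ftl1 and the miR-692 loci, at 3853 and 8423 (2.19-fold higher). The 2 probe sets for Ftl1 with its pseudogene and no microRNA had log2 ratios of 0.20 and 0.37. Mir5130 with Kctd12 read 4618 and 2843, 1.62-fold lower. Olfactory and other sensory receptors (13 probe sets), protocadherins (6) and serpins with stefins (4) had none above the floor, and sensory receptors are among the families that set the floor.

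Dnajc19 with its pseudogene, a co-chaperone of the mitochondrial inner membrane, read 1499 and 3097 on 1 probe set (2.07-fold higher), 145 and 101 on another and 558 and 475 on the third. Krtap9-1, a hair-keratin-associated gene, read 54.5 and 198 with Gm11559, Gm11567 and Gm11568 (at least 2.41-fold higher). Hair-keratin genes are among those that set the floor, and Gm11559 alone and Gm11567 alone were below it on both arrays. Krt17 with Krt14 read 61.5 and 128, at least 1.56-fold higher.

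The chemokine Ccl27a, with Ccl27b and 3 gene models, read 130 and 80.6 on 1 probe set and 109 and 126 on the other. Clec4b1 with Clec4a2, C-type lectin receptors, read 2637 and 3273. Akr1c12 with Akr1c13, aldo-keto reductases, read 1597 and 1064. Cyp4f37 with Cyp4f16, cytochromes P450, read 783 and 810, and the adhesion molecules Ceacam2 with Ceacam1 read 567 and 532 on 1 probe set and 1173 and 1206 on the other. The prolactin relatives Prl2c4, Prl2c3 and Prl2c2 with Gm7040 read 8.58 and 96.9, just above the floor on the elicited array. None of these pairs of signals differed by 2-fold after the floor was set.

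Shared probe sets were set beside those for a single gene. Of the 604, 295 had a named gene with a probe set of its own, and in 194 both kinds were above the floor on both arrays. The median distance between the shared log2 ratio and the median of the single-gene ones was 0.40. The distance was under 2-fold in 157 of 194 (80.9%) and larger in 37. Since 491 of the 604 were themselves within 2-fold between the arrays, a small distance does not show that both kinds read the same RNA. Of the 194, 38 shared probe sets had a 2-fold difference between the arrays, and in 28 of these the single-gene probe sets lay on the same side and in 10 on the opposite side. The widest distances were those of Hba-a2 with Hba-a1 (3.40 on the log2 scale), H2-DMb2 with H2-DMb1 (3.09) and Aph1b with Aph1c (2.55).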

How the data were processed

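RNA of 2 samples, 1 per group, was measured on Affymetrix 3' arrays. The deposited values are linear intensities. MAS5 is the summary method that the submitters' processing notes name, so the authors' intensities are relative signals. Their mean after trimming 2% at each end was 500.003 and 500.004, so each array had been scaled to a common level. Probe sets were assigned by the platform annotation, and symbols were updated by gene ID to the RefSeq table of GRCm38.p6. Families were assigned by symbol, and a probe set joined one when any of its genes matched. The gene lists and families were chosen with earlier results of these data known. Named in the text were the 12 highest and 12 lowest ratios above the floor on both arrays, the 6 brightest bounds in each direction, and in each family the measured members or, in larger families, those with the largest ratios and the brightest. H2-K1, H2-D1 and other probe sets for 1 gene are given beside the shared ones. A few more were named after their values were seen: the H2az1, H3.3, H2ac and Ftl1 probe sets, other probe sets of a named gene combination, the dimmer H4c sets, and those below the floor. Log2 ratios, floors and alternatives were computed with Python 3.11.15, numpy 2.4.6, pandas 2.3.3 and statsmodels 0.14.6, and tested on simulated data. Upstream windows were aligned end to end with biopython 1.88 (match 2, mismatch -1, gap opening -3, extension -1). No p-value is given, because there is 1 array per group. The number of arrays limits the precision. Oligonucleotide sequences of the probe sets and protein sequences were not used here.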

Additional observations from a re-analysis of the deposited data

How the results depend on the processing

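No replicate could be left out, since each group had 1 array. No paired analysis was possible because the groups share a single replicate number. The alternatives were equal medians, quantile normalization, loess, spiked hybridisation controls set equal, a floor at the 99th percentile (174), the floor of the higher array (92.7), a pseudocount of 1 in place of a floor, a floor that both signals must pass, current gene IDs, and families whose named genes all belong. Probe sets higher on the elicited array numbered 98 with equal medians and 25 with spiked controls, against 52, and lower ones 92 with spiked controls, against 61. The MHC class I median was -1.63 with the 99th-percentile floor and -1.80 with the floor of the higher array. The immunoglobulin median was -3.17 with equal medians, -3.16 with quantile normalization, -4.42 and -3.06 with the same 2 floors, -4.38 with the pseudocount and -4.65 where both signals must pass the floor. The cause was not tested. Of the family medians under an alternative, 157 stayed within the spread between probe sets and 11 moved. Of 57 named probe sets with a 2-fold difference, 49 to 56 kept it under the scalings, the floor of the higher array and the pseudocount, 48 of 56 under the 99th-percentile floor, and none changed direction. Signals under the floor have no order, so dim genes are given as bounds.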

Other observations

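Further gene combinations past 2-fold are given here, chosen after their values were seen. Bnip3l, a receptor for the removal of mitochondria, was named with its pseudogene by 3 probe sets, which read 5877 and 14642, 4828 and 12202, and 2415 and 4962 (2.49-fold, 2.53-fold and 2.05-fold higher). Bcl2a1d, Bcl2a1b and Bcl2a1a, anti-apoptotic relatives of Bcl2, read 8334 and 21077, 2.53-fold higher. Chil4 and Chil3, chitinase-like proteins of alternatively activated macrophages, read 1290.5 and 3693 (2.86-fold higher). Sms, spermine synthase, was named with its pseudogene by 3 probe sets with log2 ratios of 1.35, 1.01 and 0.16.

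Gm10052, Hnrnpa1l2-ps2, Gm5643 and Hnrnpa1, the last a splicing factor, read 4531 and 1936, 3521 and 1586, and 4981 and 2905 (2.34-fold, 2.22-fold and 1.71-fold lower). Hnrnpa3 with Gm6793 had 4 probe sets that did not read alike, with log2 ratios between -1.50 and 0.13. Gmfg, a regulator of branched actin in leukocytes, read 3329 and 1021, and 7686 and 3031, with its pseudogene (3.26-fold and 2.54-fold lower). The pseudogenes Pisd-ps1 and Pisd-ps3 of phosphatidylserine decarboxylase were read by 5 probe sets, all lower on the elicited array, with log2 ratios between -1.67 and -0.88. Trex1, a DNA exonuclease, was named with Atrip at 1689 and 488 (log2 ratio -1.79), and a probe set for 1 of them alone had a log2 ratio of 0.31.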
